A study of Mus musculus with 2 samples.

Results

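Regulatory T-cells restrain other lymphocytes and are defined by Foxp3, the transcription factor that fixes their program. In the popliteal lymph nodes (PLNs) of TNF-Tg mice, 209 of 16404 cells met the definition used here. These Foxp3+ cells had 200 or more detected genes, a share of Cd79a, Cd79b and Ms4a1 in their total below 0.0015, 3 or more UMIs of Cd3d, Cd3e and Cd3g, at most 1 UMI of Cd8a and Cd8b1, and 1 or more UMIs of Foxp3. A UMI, a unique molecular identifier, counts 1 captured RNA molecule. The Early library held 57 of them and the Advanced library 152. They were set against Foxp3- CD4 T-cells, which met the same limits but had no Foxp3 UMI and 1 or more of Cd4, and of which there were 34 Early and 185 Advanced.

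The measurement was droplet 3' single-cell RNA sequencing of live, nucleated cells sorted from digested PLNs, the nodes that drain the ankle and foot. All cells came from male TNF-Tg mice on a C57BL/6 background, a transgenic model in which excess TNF inflames and erodes the joints. Early arthritis was sampled at 5 to 6 months of age and Advanced arthritis at more than 8 months, with 3 mice pooled into 1 library per stage and no wild-type cells analysed here. With 1 library per stage there was no replicate error and no test was possible, so intervals are 95% intervals for counting error only, and stage, age and library cannot be told apart. The libraries held 67610110 UMIs in 8221 cells and 83148059 UMIs in 8183 cells, and 19 barcodes occurred in both, none of them among Foxp3+ cells.

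Foxp3+ cells carry the interleukin-2 receptor chain Il2ra, which lets them capture the cytokine that sustains them, and the inhibitory receptor Ctla4, with which they block co-stimulation of other T-cells. Resting regulatory T-cells circulate between blood and lymph nodes and express homing genes such as Ccr7 and S1pr1. Effector regulatory T-cells have met antigen, express genes such as Icos, Maf and the S100 proteins, and can enter inflamed tissue. Lymph nodes hold both states, beside Foxp3- helper cells that provide help to B-cells.

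The start-site sequences of Foxp3, Ctla4 and Il2ra are shown because these genes were detected together in the cells described. Foxp3 lies at chrX:7573644-7595245, Ctla4 at chr1:60887000-60915832, Ikzf2 at chr1:69531214-69687245 and Il2ra at chr2:11642807-11693193 in GRCm38, with Ikzf2 on the minus strand and the others on the plus strand. Each run below is from RefSeq (GRCm38.p6), 5' to 3' on the plus strand, and spans 250 bases before to 50 after a listed start site, so that all 4 windows fall wholly or partly within those gene spans. Capitals mark a match to TTCNNNGAA, the element read by STAT factors, which signal from the interleukin-2 receptor.
Foxp3, chrX:7579426-7579725: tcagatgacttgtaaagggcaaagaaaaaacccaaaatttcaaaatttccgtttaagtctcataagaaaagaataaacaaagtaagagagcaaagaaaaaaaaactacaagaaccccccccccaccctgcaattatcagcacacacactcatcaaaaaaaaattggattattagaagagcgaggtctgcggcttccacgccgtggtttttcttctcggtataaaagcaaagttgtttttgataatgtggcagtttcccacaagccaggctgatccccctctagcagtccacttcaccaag
Foxp3, chrX:7580233-7580532: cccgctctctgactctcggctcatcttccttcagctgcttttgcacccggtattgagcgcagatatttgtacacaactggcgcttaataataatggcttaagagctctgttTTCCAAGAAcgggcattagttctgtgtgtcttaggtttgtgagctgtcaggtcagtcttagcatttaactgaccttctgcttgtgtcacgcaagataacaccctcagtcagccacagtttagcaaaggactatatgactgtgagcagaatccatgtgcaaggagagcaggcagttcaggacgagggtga
Ctla4, chr1:60908775-60909074: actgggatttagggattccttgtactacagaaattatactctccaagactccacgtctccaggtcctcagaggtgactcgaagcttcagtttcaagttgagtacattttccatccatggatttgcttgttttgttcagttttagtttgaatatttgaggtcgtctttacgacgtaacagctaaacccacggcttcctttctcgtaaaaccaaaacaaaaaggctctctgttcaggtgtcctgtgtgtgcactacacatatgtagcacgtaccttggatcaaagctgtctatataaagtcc
Il2ra, chr2:11642542-11642841: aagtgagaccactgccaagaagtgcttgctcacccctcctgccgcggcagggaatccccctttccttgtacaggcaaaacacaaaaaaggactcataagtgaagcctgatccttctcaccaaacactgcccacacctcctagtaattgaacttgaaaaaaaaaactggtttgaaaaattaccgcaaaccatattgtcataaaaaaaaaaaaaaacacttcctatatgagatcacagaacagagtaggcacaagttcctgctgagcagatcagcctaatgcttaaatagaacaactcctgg
One window held a match, the second of Foxp3, with its first base at -139 from the start site. Of 32851 windows of this length, searched on both strands, 8.30% held TTCNNNGAA and 3.65% held the forkhead element TGTTTAC, the kind of sequence that Foxp3 binds. None of the 4 windows shown held TGTTTAC, which says only that these letters are not in these windows.

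The defining markers were detected in most cells of the class. Ikzf2, which encodes Helios, a transcription factor of regulatory T-cells, had a UMI in 89.5% of Early and 90.8% of Advanced Foxp3+ cells. Ctla4 had one in 91.2% and 86.2%, and Il2ra in 64.9% and 53.3%. These cells had median totals of 7805 Early and 6784 Advanced UMIs, below the 10638 and 8946 of Foxp3- CD4 cells. With each cell thinned to 4000 UMIs, which left out 3 Early and 20 Advanced Foxp3+ cells, Ikzf2 was found in 85.2% and 81.1%, Ctla4 in 81.5% and 73.5%, and Il2ra in 50% and 40.2%. In thinned Foxp3- CD4 cells, Ikzf2 was found in 52.9% and 20.2%, Ctla4 in 29.4% and 24.3%, and Il2ra in 8.82% and 4.05%. The label of regulatory T-cells therefore matched the 3 markers that the rule did not use, while the Foxp3- class also held cells with these transcripts.

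Foxp3 itself was sparse. The median Foxp3+ cell had 3 Foxp3 UMIs Early and 2 Advanced, and the highest had 12 and 24. Exactly 1 Foxp3 UMI was found in 10 Early and 54 Advanced cells, and 4 or more in 21 and 53. A Foxp3 UMI occurred in 0.0668% of 7489 Early and 0.528% of 5304 Advanced B-cells, at median depths of 6559 and 7336.5 UMIs. In CD8 T-cells, the share was 10.7% of 56 Early and 1.99% of 654 Advanced cells, at medians of 15408.5 and 12909.5 UMIs. The markers differed in how they followed the Foxp3 count. With exactly 1 Foxp3 UMI, the level of Ikzf2 was 1092 CPM (counts per 1000000 UMIs summed over a class) Early and 739 CPM Advanced. With 4 or more, it was 829.6 CPM Early and 709 CPM Advanced. Ctla4 was at 463 and 435 CPM in these Early cells, and at 342 and 594 CPM in the Advanced ones. Il2ra was at 249.2 and 151 CPM Early, and at 73.7 and 216 CPM Advanced, where 18 of 54 cells with 1 Foxp3 UMI and 34 of 53 with 4 or more had it. In the Advanced library, both were lower just inside the limit. Just outside the limit, in cells with no Foxp3 UMI and any Cd4 count, Ikzf2 was at 173 and 191 CPM. At the limits on CD8 and B-cell genes, 6 Early and 13 Advanced Foxp3 cells with 2 or more Cd8a and Cd8b1 UMIs stayed outside, at medians of 51191 and 17896 UMIs, as did 7 and 26 with too large a B-cell share.

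Foxp3+ cells made up more of the Advanced library but less of its T-cells. Their share of all cells was 0.693% (0.526 to 0.897) Early and 1.86% (1.58 to 2.17) Advanced, a ratio of 2.68 (1.98 to 3.62). Foxp3- CD4 cells were 0.414% and 2.26% of all cells, a ratio of 5.47 (3.81 to 7.86). Of both CD4 classes together, Foxp3+ cells were 62.6% (51.9 to 72.6) Early and 45.1% (39.7 to 50.6) Advanced, with a ratio of 0.720 (0.597 to 0.889). Of all gated T-cells with CD8 included, they were 30.8% (24.2 to 38.0) and 12.3% (10.5 to 14.2), while CD8 T-cells were 30.3% and 52.8%. The interval of each ratio excluded 1 for counting error, but a pooled library gives no spread between mice. A Cd4 UMI was found in 33 of 57 Early and 73 of 152 Advanced Foxp3+ cells. When one was asked of them too, they were 33 of 67 Early and 73 of 258 Advanced cells of both CD4 classes. The ratio of these shares was 0.574. When Foxp3- cells needed none, it was 0.588.

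**Figure D1:**
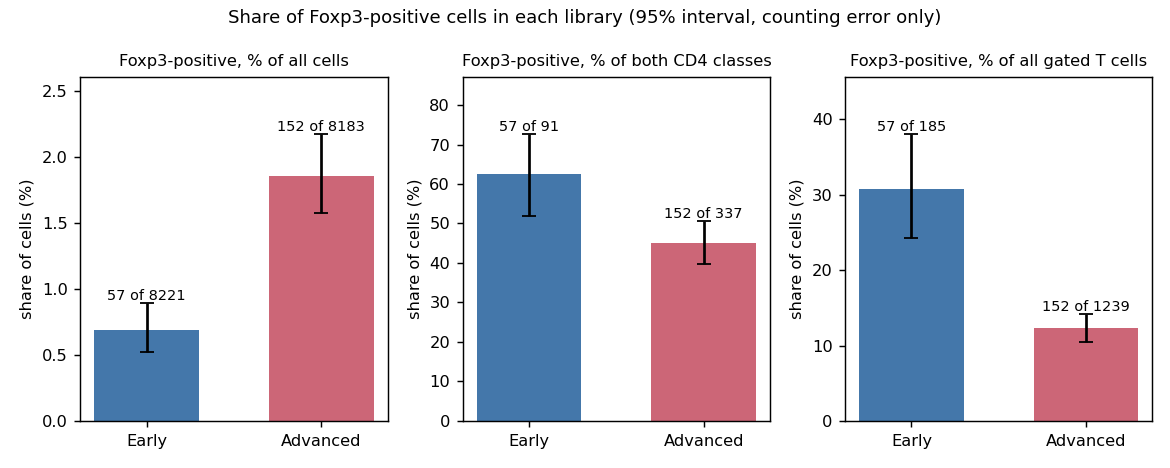
Share of Foxp3+ cells (%) in the Early (blue) and Advanced (red) libraries out of all cells, of both CD4 classes and of all gated T-cells; error bars are 95% Clopper-Pearson intervals for counting error and the numbers above them are cells. The share of all cells is higher in Advanced (1.86% against 0.693%), and both shares of T-cells are lower.

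Against Foxp3- CD4 cells, Foxp3+ cells of both libraries had higher levels of receptors for interleukin-2 and TNF-family ligands and lower levels of Cd40lg, Ifng and most measured follicular helper genes. Foxp3 chose these cells, so the comparison of classes is a description without a test. A gene was counted as higher or lower where it reached 20 CPM in 1 class of each library and both libraries gave a ratio whose whole interval was past 2-fold. Of 5202 genes measured, 27 were higher (0.519%, Foxp3 included) and 15 were lower (0.288%). A ratio above 1 in both libraries was found for 32.5% of genes and one below 1 in both for 17.4%. Large cells in division gave much of the RNA summed here. The 9 Early and 17 Advanced Foxp3+ cells with 20 or more UMIs of 14 cell-cycle genes held 42.2% and 39.8% of the UMIs of their class. Among Foxp3- CD4 cells, 8 and 11 such cells held 56.3% and 16.4%. Without them, 13 genes were higher and 8 lower, and 17 of the 42 genes counted before were among them.

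Of the 13 genes listed for regulatory T-cell identity, 12 passed the 20 CPM limit, all 12 were above 1 in both libraries, and 8 were counted as higher. Gpr83 did not pass the limit. The list's median log2 ratio was 1.51 Early and 2.01 Advanced, against -0.06 and 0.20 over all genes. Il2ra stood at 176 CPM in Early Foxp3+ and 17.7 CPM in Early Foxp3- cells, and at 178 and 18.7 CPM in the Advanced classes. Its ratio was 9.95 (5.22 to 21.3) Early and 9.48 (6.69 to 13.8) Advanced. Without dividing cells, described above, it was 6.32 and 12.5, and with each cell weighted equally 6.66 and 12.7. Ikzf2 was at 876 and 189 CPM Early and at 717 and 169 CPM Advanced, ratios of 4.63 (3.76 to 5.75) and 4.24 (3.75 to 4.81). With each cell weighted equally they were 3.24 and 6.12, both beyond these intervals. Ctla4 was at 434 and 148 CPM Early and at 473 and 103 CPM Advanced, ratios of 2.93 (2.29 to 3.77) and 4.59 (3.92 to 5.39). Ikzf4, which encodes Eos, a partner of Foxp3 in gene repression, had ratios of 4.54 (2 to 12) and 3.69 (2.48 to 5.60). Lrrc32, which encodes GARP, the protein that holds latent TGF-beta on the cell surface, was at 31.0 CPM in Early Foxp3+ cells and without a UMI in the 34 Early Foxp3- cells. That made it at least 5.85-fold higher, with the missing gene set at 3 UMIs over the class. Advanced, its ratio was 5.18 (2.57 to 11.6). Izumo1r, the folate receptor 4 of regulatory T-cells, had ratios of 1.86 and 1.92, and Nrp1, a surface receptor of thymus-derived cells, of 1.80 and 2.43. The Early ratio of Nrp1 was 1.05 without dividing cells and 0.986 with equal weights. The actin-capping gene Capg had ratios of 2.29 (1.89 to 2.80) and 4.26 (3.67 to 4.95).

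Genes of interleukin-2 receptor signaling separated into those that differed and those that did not. Of 13 listed, 12 were measured, 7 were above 1 in both libraries, none was below 1 in both, and 3 were counted as higher, namely Il2ra, Cish and Socs2. Cish, a feedback inhibitor of cytokine receptors, was at 82.7 and 19.4 CPM Early and at 82.9 and 16.1 CPM Advanced. Its ratios were 4.26 (2.21 to 9.01) and 5.13 (3.45 to 7.86). Socs2, another such inhibitor, was at 32.5 and 1.77 CPM Early and at 20.1 and 2.60 CPM Advanced, ratios of 18.4 (2.97 to 759) and 7.72 (2.98 to 25.4). The wide Early interval comes from 1 UMI in the Foxp3- cells. Il2rb, the signaling chain, had ratios of 1.86 (1.40 to 2.49) and 3.45 (2.81 to 4.27). For the shared chain Il2rg they were 1.07 (0.840 to 1.36) and 1.03 (0.904 to 1.18), and for the kinase Jak1 1.18 (0.940 to 1.47) and 0.811 (0.712 to 0.922). Both intervals for Il2rg included 1.

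Receptors of the TNF family followed the same direction, with 9 of 10 measured members above 1 in both libraries and 2 of them counted as higher. The lists share members, so these counts are not separate results. Both counted here, Tnfrsf4 and Tnfrsf18, are identity genes too, as are Il2ra and Socs2 above. The same holds for Ctla4 and Lrrc32 among the molecules of suppression below. Tnfrsf4, which encodes OX40, a co-stimulatory receptor, was at 650.1 and 235 CPM Early and at 418 and 109 CPM Advanced. Its ratios were 2.77 (2.27 to 3.38) and 3.84 (3.28 to 4.51). Without the dividing cells they were 1.67 and 4.51. Tnfrsf18, which encodes GITR, had ratios of 2.67 (2.02 to 3.59) and 3.13 (2.62 to 3.76). Tnfrsf1b, which encodes TNF receptor 2, the receptor through which TNF acts on regulatory T-cells, was at 57.6 and 15.9 CPM Early and at 67.2 and 20.3 CPM Advanced. The ratios were 3.62 (1.73 to 8.5) and 3.31 (2.27 to 4.90), and Tnfrsf1b fell short of the count because the Early interval reached below 2. Tnfrsf1a, the broadly expressed TNF receptor 1, stayed below the 20 CPM limit, at 5.91 and 8.79 CPM in Foxp3+ cells. Tnfrsf9 (4-1BB) had ratios of 2.02 (1.29 to 3.23) and 3.53 (2.44 to 5.19), and Fas, the death receptor that formed the exception, of 0.836 (0.401 to 1.74) and 1.06 (0.732 to 1.53).

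Of genes known from regulatory T-cells in tissues, 7 of 11 were measured, 6 were above 1 in both libraries and 3 were counted as higher. Itgae, the integrin chain CD103 that binds epithelium, was at 66.5 and 1.77 CPM Early and at 101 and 7.29 CPM Advanced. Its ratios were 37.6 (6.42 to 1518) and 13.9 (8.03 to 25.9), and it was found in 31.6% of Early and 41.4% of Advanced Foxp3+ cells. The chemokine receptor Ccr2 had ratios of 14.2 (4.60 to 71.2) and 4.10 (2.79 to 6.16). Areg, a growth factor for tissue repair, was at least 4.46-fold higher Early and had a ratio of 5.86 (3.26 to 11.3) Advanced. Il1rl1, the receptor for interleukin-33, was in 8 of 57 Early and 22 of 152 Advanced Foxp3+ cells. It had 1 UMI in the Foxp3- class of each library, with ratios of 12.5 (1.93 to 528) and 60.3 (10.3 to 2428). Cxcr6, a homing receptor, was the measured member without a common direction, with ratios of 0.244 and 1.53. Klrg1, an inhibitory receptor of late effector cells from another list, had no UMI in any Foxp3- CD4 cell. It stood at 45.8 CPM Early and 74.7 CPM Advanced in Foxp3+ cells, in 15.8% and 19.7% of them. That put it at least 8.64-fold higher Early and at least 47.8-fold higher Advanced. One cell held 48.4% of the Early Klrg1 UMIs and 1 held 15.1% of the Advanced ones.

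Of 13 molecules of suppression, 7 were measured. Of these, 5 were above 1 in both libraries and 3 were counted as higher, Ctla4, Lrrc32 and Fgl2. Fgl2, a secreted inhibitor, was in 19.3% of Early and 20.4% of Advanced Foxp3+ cells. It was at least 9.19-fold higher Early and had a ratio of 14.2 (5.18 to 54.1) Advanced. Nt5e (CD73), which makes adenosine, had ratios of 1.86 (1.04 to 3.44) and 2 (1.45 to 2.77). Tgfb1 was at 111 and 131 CPM Early and at 136 and 77.0 CPM Advanced, so that only the Advanced library had it higher in Foxp3+ cells. It was not among the genes flagged below for intervals on opposite sides of 1. The checkpoint receptor Lag3 was lower in Foxp3+ cells, with ratios of 0.372 (0.140 to 0.898) and 0.656 (0.409 to 1.03). Il10 was below the limit, at 1.48 CPM from 1 cell Early and 16.9 CPM Advanced. Gzmb, the protease granzyme B, was in 8.77% and 5.92% of Foxp3+ cells, and 1 cell held 68.0% of its Early UMIs.

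**Figure D2:**
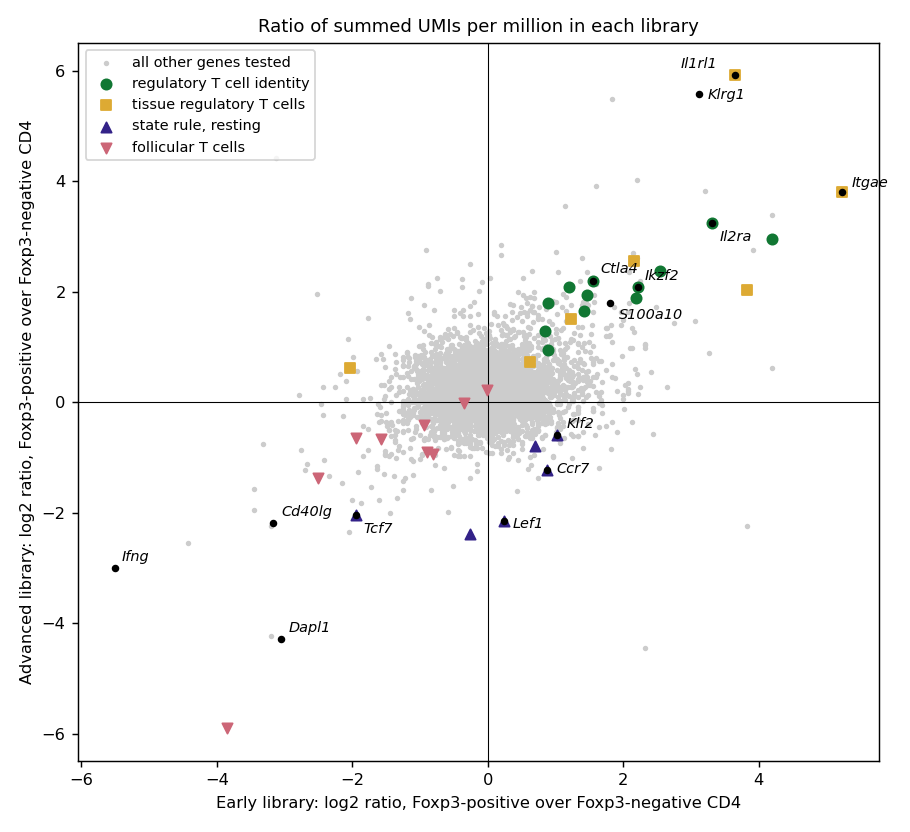
Log2 ratio of CPM in Foxp3+ over Foxp3- CD4 cells, Early library on the x axis and Advanced on the y axis, for the genes measured in both; colors mark 4 gene lists, black dots carry gene names, and a gene without a UMI in 1 class is drawn with 3 UMIs there. Identity genes (green circles) lie in the upper right, follicular genes (red triangles) mostly in the lower left, and Ccr7 and Klf2 are above 0 Early and below 0 Advanced.

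Among 12 listed helper cell cytokines and ligands, 4 were measured, 2 above and 2 below 1 in both libraries, and the latter, Cd40lg and Ifng, were counted as lower. Cd40lg, the ligand by which helper cells activate B-cells, was at 13.3 and 120.2 CPM Early and at 28.9 and 132 CPM Advanced. Its ratios were 0.111 (0.0485 to 0.223) and 0.218 (0.156 to 0.300). Ifng, the cytokine of type 1 helper cells, was in 1 Early and 5 Advanced Foxp3+ cells, with ratios of 0.022 and 0.125. Il21 had no UMI in Foxp3+ cells, which allows up to 5.26% of Early and 1.97% of Advanced cells with one, and was in 14.7% and 6.49% of Foxp3- cells. Of 12 genes of follicular helper cells, which guide germinal center B-cells, 9 were measured, 8 were below 1 in both libraries and 2 were counted as lower. Cd200 had ratios of 0.175 (0.105 to 0.279) and 0.384 (0.301 to 0.486), and Cxcr5, the receptor that brings cells into follicles, of 0.334 (0.143 to 0.721) and 0.632 (0.359 to 1.08). Sostdc1, the other one counted, had no UMI in Early and 1 in Advanced Foxp3+ cells. It was in only 5.88% and 1.62% of Foxp3- cells. Pdcd1 (PD-1) had ratios of 0.569 (0.351 to 0.911) and 0.522 (0.325 to 0.818), but 1.06 in both libraries when Foxp3- cells were not required to have a Cd4 UMI. Tbc1d4, a regulator of vesicle transport, had ratios of 0.259 (0.188 to 0.351) and 0.635 (0.523 to 0.769), the second of which was 1.10 without dividing cells. Tox, at 0.993 and 1.17, was the 1 measured member not below 1 in both.

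Further genes counted as lower were Dapl1, Sox4, Spp1, Gpm6b, Gm12840, Tnfsf8, Themis, Angptl2, Dennd2d and Rnf19a. Themis, which tunes T-cell receptor signaling, was at 8.87 and 97.2 CPM Early and at 26.4 and 78.6 CPM Advanced, ratios of 0.0912 (0.0321 to 0.211) and 0.335 (0.232 to 0.475). Tnfsf8, the ligand of CD30, had ratios of 0.225 (0.166 to 0.303) and 0.364 (0.291 to 0.452). Spp1 was in 1.62% of Advanced Foxp3- cells, so its ratios of 0.109 and 0.0532 rest on few cells. Further genes counted as higher were S100a10, Vim, Ass1, Gbp7, Ncmap, Cd81, Cmtm7, Ifngr1, Gm28112 and 1500009L16Rik. S100a10, a calcium-binding partner of annexin, was at 2005 and 576 CPM Early and at 1747 and 503 CPM Advanced. Its ratios of 3.48 (3.08 to 3.94) and 3.47 (3.23 to 3.74) were close in both stages. Ifngr1, the receptor for interferon gamma, had ratios of 4.37 (2.86 to 6.93) and 2.53 (2.03 to 3.16). Single cells held 53.7% of the Early and 42.1% of the Advanced UMIs of 1500009L16Rik.

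Resting genes did not keep 1 direction between the classes. Of 16 listed, 14 were measured, none was above 1 in both libraries and 3 were below 1 in both. The median log2 ratio was 0.66 Early and -0.83 Advanced. Tcf7, a transcription factor of naive and memory T-cells, was the steady member, at 70.9 and 274 CPM Early and at 74.1 and 303 CPM Advanced. Its ratios were 0.259 (0.183 to 0.360) and 0.244 (0.199 to 0.298). Dapl1, a gene of naive T-cells, had ratios of 0.121 and 0.0513, and its 19.2 CPM in Early Foxp3+ cells came from 1 cell. Ccr7, the receptor for lymph node entry, was at 65.0 and 35.4 CPM Early and at 85.4 and 199 CPM Advanced. The ratio was 1.84 (1.06 to 3.29) Early and 0.428 (0.349 to 0.522) Advanced. Klf2, which keeps T-cells in circulation, was at 374 and 184 CPM Early and at 377 and 571 CPM Advanced, ratios of 2.03 (1.61 to 2.58) and 0.661 (0.597 to 0.730). Without the dividing cells the Early ratio was 1.23. S1pr1, the receptor for exit from lymph nodes, had ratios of 1.63 (1.18 to 2.28) and 0.574 (0.495 to 0.663), and 1.21 Early without dividing cells. Lef1, a partner of Tcf7 in naive T-cells, was at 81.3 and 68.9 CPM Early and at 61.5 and 273 CPM Advanced, ratios of 1.18 and 0.225. Satb1, a chromatin organizer, had 0.836 and 0.191, and Igfbp4, a gene of naive CD4 cells, 1.17 and 0.066, with 10.3 and 8.84 CPM Early and 15.7 and 238 CPM Advanced. For Klf2 and S1pr1 the Foxp3+ levels of the 2 stages were close, and the Foxp3- level was the one that was higher Advanced.

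Effector genes were mostly above 1 in Foxp3+ cells. Of 15 listed, 13 were measured, 10 were above 1 in both libraries and 3 were counted as higher, Klrg1, S100a6 and Lgals1. S100a4, a calcium-binding protein of migrating cells, was at 1665 and 802 CPM Early and at 1350.1 and 641 CPM Advanced, ratios of 2.08 (1.86 to 2.32) and 2.11 (1.96 to 2.26). S100a6 was at 1588 and 675 CPM Early and at 1032 and 307 CPM Advanced, ratios of 2.35 (2.09 to 2.65) and 3.37 (3.06 to 3.70). Lgals1, which encodes galectin-1, was at 1828 and 691 CPM Early and at 1340.1 and 381 CPM Advanced, ratios of 2.64 (2.36 to 2.97) and 3.52 (3.24 to 3.84). The Early values rest on dividing cells, since without these the ratio was 0.614 for S100a6 and 0.940 for Lgals1. In the Advanced library they were 4.07 and 2.08. Cd44, an adhesion receptor of activated T-cells, had ratios of 1.04 and 1.80. Icos, a co-stimulatory receptor, had ratios of 1.61 (1.24 to 2.10) and 3.70 (3.06 to 4.49), and the transcription factor Maf of 1.02 (0.832 to 1.25) and 2.22 (1.92 to 2.58). Prdm1, which encodes Blimp-1, had 3.03 (1.35 to 7.67) and 15.1 (5.53 to 57.5). Itgb1, an integrin chain for matrix adhesion, was lower Early, at 0.541 (0.422 to 0.692), and 1.08 (0.908 to 1.27) Advanced.

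**Figure D3:**
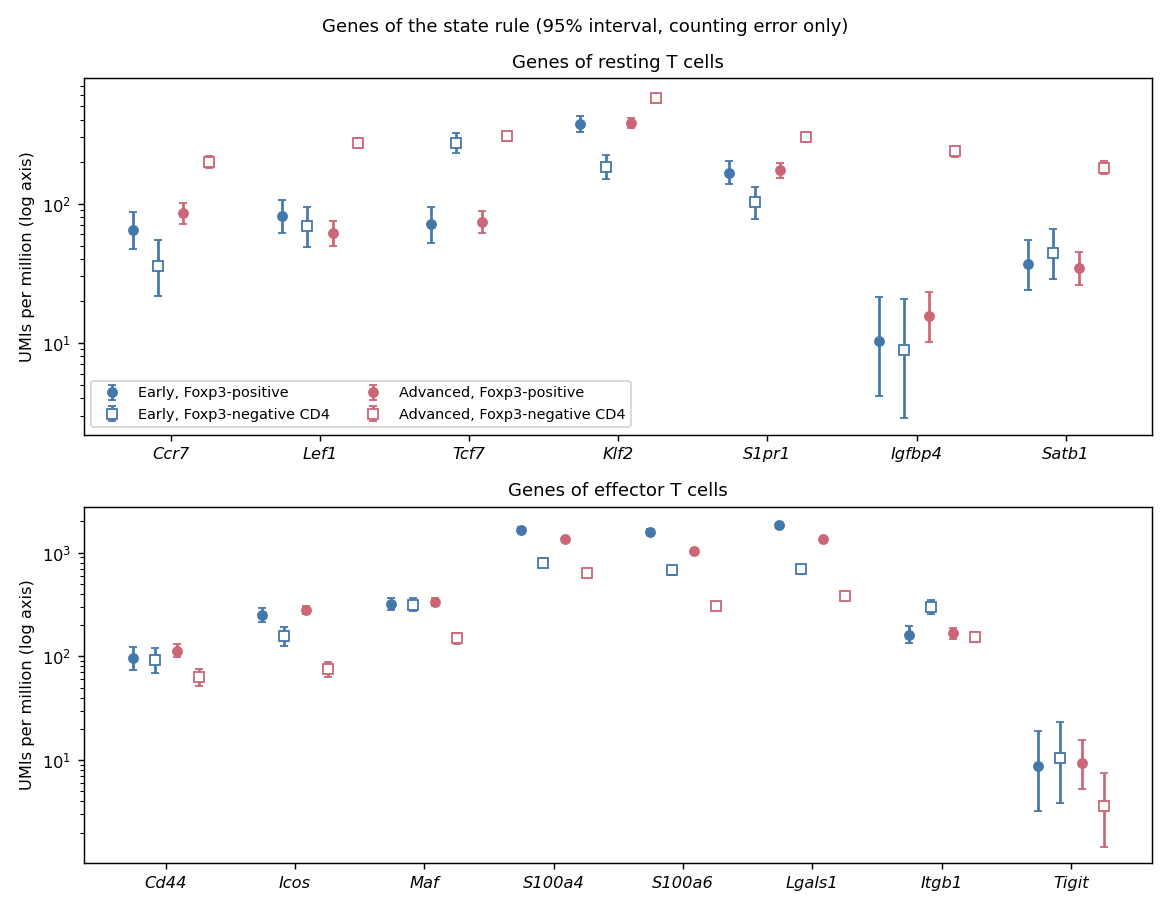
CPM (log axis) of 7 genes of resting and 8 genes of effector T-cells in Foxp3+ (filled circles) and Foxp3- CD4 cells (open squares) of the Early (blue) and Advanced (red) libraries, with 95% intervals for counting error. For Ccr7, Klf2 and S1pr1 the 2 filled circles lie close together while the open red square lies well above the open blue one, as with 199 against 35.4 CPM for Ccr7.

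To place each cell between the resting and effector states, cells were thinned to 4000 UMIs and the detected members of 8 resting and 8 effector genes were counted. The resting genes included Ccr7, Lef1, Tcf7, Klf2, S1pr1, Igfbp4 and Satb1, and the effector genes were Cd44, Icos, Maf, S100a4, S100a6, Lgals1, Itgb1 and Tigit. A cell with more effector than resting genes was called effector-leaning, one with fewer resting-leaning, and one with equal numbers even. The call is a range and not a cell type, and 14 of 54 Early and 42 of 132 Advanced Foxp3+ cells lay within 1 gene of the line. Effector-leaning Foxp3+ cells were 32 of 54 (59.3%, 45.0 to 72.4) Early and 85 of 132 (64.4%, 55.6 to 72.5) Advanced, a ratio of 1.09 (0.858 to 1.44). Resting-leaning ones were 15 (27.8%) and 37 (28.0%). Without S100a4, S100a6 and Lgals1 in the rule, effector-leaning cells were 23 of 54 (42.6%) and 49 of 132 (37.1%), so that the size of the share depends on these 3 genes. Foxp3- CD4 cells were effector-leaning in 19 of 34 (55.9%, 37.9 to 72.8) Early and 41 of 173 (23.7%, 17.6 to 30.7) Advanced cells, a ratio of 0.424 (0.290 to 0.651). The median Foxp3+ cell had 2 resting genes in both stages, with 4 effector genes Early and 3.5 Advanced. The median Foxp3- cell had 1.5 resting and 3.5 effector genes Early, and 4 and 1 Advanced. The 2 classes thus had close state shares Early and distant ones Advanced, a difference between stages that was not tested.

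**Figure D4:**
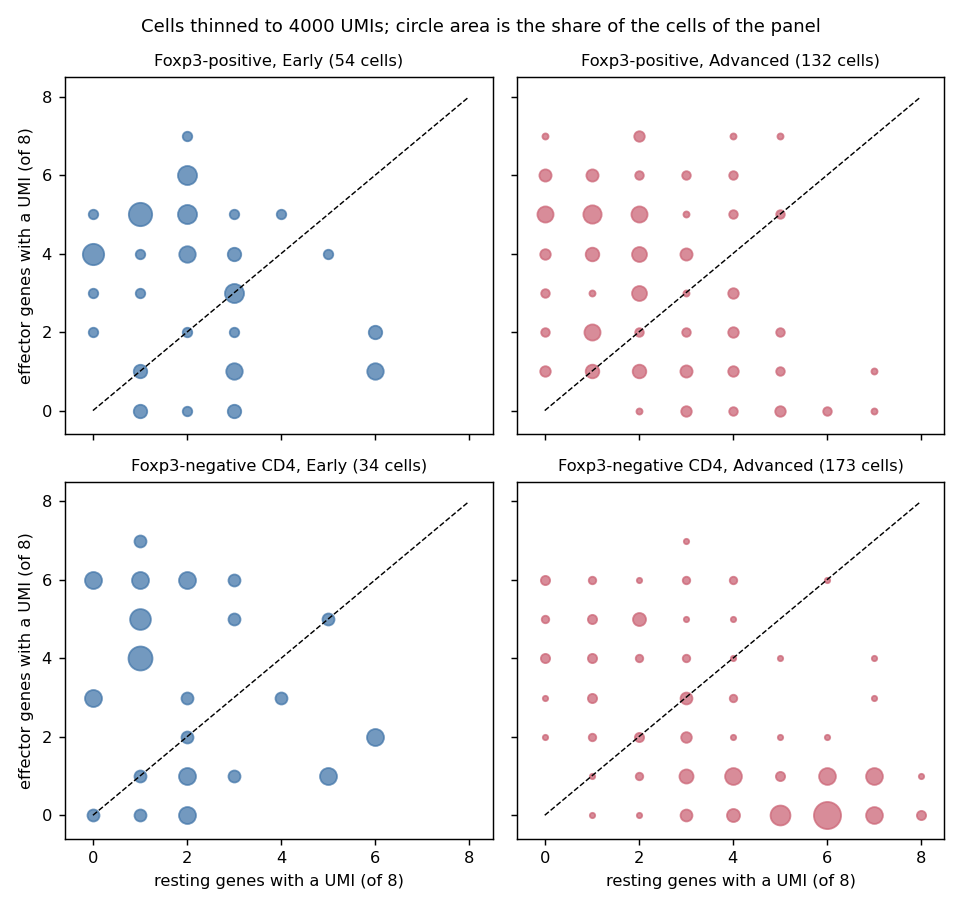
Number of resting (x axis) and effector (y axis) genes with a UMI in each cell, out of 8 each, after thinning to 4000 UMIs, for Foxp3+ (top) and Foxp3- CD4 cells (bottom) of the Early (left) and Advanced (right) libraries; circle area is the share of the cells in a panel, and cells above the dashed line are effector-leaning. Advanced Foxp3- cells gather at the lower right (23.7% effector-leaning) and Advanced Foxp3+ cells at the upper left (64.4%).

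Within Foxp3+ cells, genes outside the state rule differed between the 2 ends. The 8 Early and 15 Advanced Foxp3+ cells over 20000 UMIs were all effector-leaning. Large cells therefore weigh in the sums of that end only, and ratios without them were not calculated. Il2ra was at 81.6 CPM in effector-leaning and 360.5 CPM in resting-leaning Early cells, and at 147 and 313 CPM Advanced. The ratios of effector-leaning over resting-leaning cells were 0.226 (0.144 to 0.355) and 0.471 (0.364 to 0.612). Lrrc32 was likewise lower at the effector end, at 0.174 (0.0563 to 0.507) and 0.258 (0.133 to 0.5), as was Socs2, at 0.158 (0.0521 to 0.448) and 0.429 (0.197 to 0.968). Izumo1r had ratios of 0.585 (0.438 to 0.786) and 0.682 (0.555 to 0.841). The survival gene Bcl2 was the lowest of these at the effector end, with 0.0856 (0.0389 to 0.174) and 0.146 (0.103 to 0.206). Tnfrsf4 went the other way, at 2.67 (1.88 to 3.92) and 1.63 (1.29 to 2.09), with Tnfrsf18 at 1.57 (1.03 to 2.50) and 1.45 (1.10 to 1.95). Batf, a transcription factor needed for effector regulatory T-cells, had 2.82 (1.43 to 6.35) and 5.35 (2.76 to 11.9). Rora, a nuclear receptor of tissue regulatory T-cells, had 1 UMI in the resting-leaning cells of each library, with ratios of 14.9 (2.58 to 599.7) and 31.4 (5.52 to 1251). Klrg1 and Prdm1 had no UMI in resting-leaning cells and were at least 2.49-fold and 2.41-fold higher Early and 10.5-fold and 4.06-fold higher Advanced. Ctla4 did not separate the ends, at 0.827 (0.615 to 1.13) and 1.00 (0.832 to 1.22).

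The identity genes also separated the classes inside each state. The Early Foxp3- class had only 11 resting-leaning and 19 effector-leaning cells. The largest of the 11 had 79749, 32824 and 30391 UMIs, so the Early ratios at the resting end rest on few cells. Among resting-leaning cells, the ratio of Foxp3+ over Foxp3- cells for Il2ra was 12.2 (5.17 to 35.0) Early and 23.7 (13.8 to 43.0) Advanced. Ctla4 had 4.90 (2.91 to 8.59) and 8.30 (6.16 to 11.3), and Ikzf2 4.98 (3.35 to 7.57) and 5.42 (4.15 to 7.09). Among effector-leaning cells, the ratios for Il2ra were 6.62 (2.39 to 25.5) and 4.51 (2.77 to 7.80). Ctla4 had 2.20 (1.64 to 2.99) and 2.42 (1.96 to 3.02) there, and Ikzf2 5.27 (3.97 to 7.11) and 2.17 (1.85 to 2.56). Izumo1r was 5.45-fold and 4.70-fold higher among resting-leaning cells, but only 1.34 (1.02 to 1.77) and 1.12 (0.920 to 1.38) among effector-leaning ones. Cd40lg stayed lower in both states, with ratios of 0.0976 and 0.259 at the resting end and 0.120 and 0.125 at the effector end.

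Between the stages, few genes of Foxp3+ cells lay beyond 2-fold. Of 5747 genes at 20 CPM or more in 1 library, 24 were higher Advanced (0.418%) and 6 were lower (0.104%), with 51.3% of genes above and 48.7% below 1. None of the 12 measured identity genes was among them. Il2ra had an Advanced over Early ratio of 1.01 (0.813 to 1.26), Ctla4 of 1.09 (0.95 to 1.25) and Foxp3, which chose the cells, of 1.08 (0.915 to 1.28). Ikzf2 was 0.819 (0.741 to 0.906) and Tnfrsf4 0.643 (0.569 to 0.727), both lower Advanced by less than 2-fold. With each cell weighted equally, Ikzf2 was 0.965 and Tnfrsf4 0.731, both beyond these intervals. Several state genes were close to 1 in Foxp3+ cells, with Klf2 at 1.01 (0.870 to 1.17), S1pr1 at 1.04 (0.831 to 1.30), Tcf7 at 1.04 (0.741 to 1.49) and Maf at 1.03 (0.879 to 1.21). The same ratios in Foxp3- CD4 cells were 3.11 (2.54 to 3.84) for Klf2, 2.94 (2.25 to 3.93) for S1pr1, 1.11 (0.926 to 1.33) for Tcf7 and 0.472 (0.390 to 0.572) for Maf. With equal weights, the ratio in Foxp3+ cells was 1.32 for Maf, 0.990 for Klf2, 1.02 for S1pr1 and 0.849 for Tcf7. Other state genes lay farther from 1. By CPM, S100a6, Lgals1 and Lef1 were lower Advanced and Ccr7 was higher. With equal weights S100a6 was at 0.853, Lgals1 at 0.624, Lef1 at 0.648 and Ccr7 at 1.29. No measured state gene was counted as higher or lower between stages. Itgae had 1.52 (1.09 to 2.17) and Klrg1 1.63 (1.09 to 2.51) in Foxp3+ cells.

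Several genes higher Advanced came from single cells or went with markers of other cells. In Advanced Foxp3+ cells, 1 cell held all UMIs of Ccl1, 96.5% of Siglech, 94.2% of S100a8, 93.9% of Cd209d and 92.9% of Il1b. The myeloid markers Lyz2, Csf1r, Cst3, Tyrobp and Fcer1g summed to 148 CPM in Early and 352 CPM in Advanced Foxp3+ cells, and to 95.5 and 362 CPM in Foxp3- CD4 cells. Early, 4 of these 5 had a UMI in Foxp3+ cells, with Tyrobp at 0, and Advanced all 5. Tyrobp was at least 25.6-fold higher Advanced and Fcer1g had a ratio of 30.2 (5.24 to 1208). H2-Eb1, a class II antigen-presenting chain, was at 108 and 358 CPM, with a stage ratio of 3.32 (2.60 to 4.30). Cd74, the chaperone of class II molecules, stood at 649 and 1168 CPM, with one of 1.80 (1.62 to 2). Single cells held 39.4% of the Advanced UMIs of H2-Eb1 and 35.9% of those of Cd74. Without the 6 Early and 29 Advanced Foxp3+ cells that had 3 or more UMIs of Lyz2, Csf1r, Tyrobp, Fcer1g, Nkg7, Ccl5, Klrd1, Trdc and Dntt in sum, the ratio of Cd74 was 0.982 and that of the metallothionein Mt1 was 0.566 rather than 3.70 (2.23 to 6.52). The NK and cytotoxic markers Nkg7, Ccl5, Klrd1, Ncr1 and Gzma summed to 62.1 and 259 CPM in Foxp3+ cells and to 175 and 337 CPM in Foxp3- CD4 cells. Ncr1 and Gzma were at 0 in Foxp3+ cells of both libraries, and Klrd1 in the Early ones. Of 9 listed B-cell genes, 8 were measured and 6 were above 1, with a median log2 stage ratio of 0.62 in Foxp3+ and 0.46 in Foxp3- CD4 cells. Hbb-bs and Hba-a1, which mark erythroid cells, had no UMI, and gamma delta and precursor markers summed to at most 13.8 CPM in Foxp3+ cells. Among the NK and cytotoxic markers, the chemokine Ccl5 had a stage ratio of 6.28 (3.95 to 10.6) in Foxp3+ cells. With the myeloid marker Cst3 included, 13 Early and 37 Advanced Foxp3+ cells had 3 or more myeloid UMIs, and not all of these were left out. The part of other cells in the remaining stage values was not tested.

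Genes spread over more cells were fewer. Plac8 was in 7.02% of Early and 18.4% of Advanced Foxp3+ cells, at 5.91 and 65.9 CPM, so that Advanced over Early was 11.2 (4.23 to 41.7). Parp8, an ADP-ribosyltransferase, was in 1.75% and 18.4%, at 1.48 and 22.6 CPM, and the stage ratio was 15.3 (2.58 to 621). Fosb, an immediate early gene, had a ratio of 8.92 (2.32 to 76.1), and Fos, its relative, 1.71 (1.13 to 2.67). Tissue digestion can induce such genes, and of the 10 measured genes of a dissociation list 7 were above 1 and 1, Fosb, was counted as higher. Its median log2 stage ratio was 0.51 in Foxp3+ and 0.61 in Foxp3- CD4 cells, against 0.01 and -0.21 over all genes.

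Penk was 1 of the 6 genes counted as lower Advanced. It encodes the opioid precursor proenkephalin, known from regulatory T-cells, and was at 157 CPM Early and 28.9 CPM Advanced, in 15.8% and 7.24% of cells. Its ratio was 0.184 (0.127 to 0.263), and single cells held 41.5% and 43.5% of its UMIs. Foxp3- CD4 cells had 170 and 37.0 CPM of Penk, a ratio of 0.218 (0.158 to 0.299). Genes below 1 that were not counted included Pdcd1, with a ratio of 0.385 (0.225 to 0.657), at 47.3 and 18.2 CPM. Myc had 0.525 (0.326 to 0.850) and Iars, which charges a transfer RNA, 0.263 (0.121 to 0.550). All 14 listed cell-cycle genes were below 1, with none counted as lower, a median log2 ratio of -0.40 and Hmgb2 at 2599 and 1981 CPM. Ccne2, a cyclin gene outside the list, was counted as lower, with a ratio of 0.205 when each cell was weighted equally. Without dividing cells, the ratio of Hmgb2 was 1.04. Most cell-cycle UMIs came from few cells, 93.5% Early and 91.4% Advanced from those with 20 or more. These were 9 of 57 (15.8%, 7.48 to 27.9) Early and 17 of 152 (11.2%, 6.65 to 17.3) Advanced Foxp3+ cells. After thinning, cells with 10 or more cell-cycle UMIs were 16.7% and 12.1%, and among Foxp3- CD4 cells 23.5% and 5.78%. The summed level of the list in Advanced Foxp3+ cells was 3879 CPM, and 1291 CPM without cells bearing markers of other types, of which 11 of 29 were also dividing. In the Early library it was 5103 CPM, and 4858 CPM without such cells. With those cells left out, 93 genes were counted as lower Advanced, and 11 of the 14 cell-cycle genes were among the genes counted.

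Other lists showed less. Of the 11 listed genes of T-cell receptor response, 9 were measured between stages, 5 above and 4 below 1, and Nr4a3 was counted as lower, with 1 cell holding 94.1% of its Early UMIs. Of 14 homing receptors, 10 were measured between stages and 9 were below 1, against 48.7% of all genes measured. Their median log2 ratio was -0.17 and none was counted as higher or lower. Itgb7, a chain for gut homing, was at 0.778 (0.660 to 0.919). Itgb7 had ratios between the classes of 2.86 (2.17 to 3.83) Early and 1.75 (1.5 to 2.04) Advanced. Selplg, the selectin ligand, had 4.64 (3.07 to 7.28) Early and 1.10 (0.953 to 1.28) Advanced. Lineage factors of other helper types were sparse, with Tbx21 at 2.96 and 1.26 CPM in Foxp3+ cells. Gata3, which is also used by tissue regulatory T-cells, was at 123 and 146 CPM, with ratios to Foxp3- cells of 1.54 (1.06 to 2.27) and 1.65 (1.34 to 2.02). Ccr6, which follows a chemokine of inflamed epithelium, had 2.01 (1.07 to 3.94) and 6.55 (3.67 to 12.5). Of 7 measured interferon response genes, 5 were above 1 in both libraries between classes, against 32.5% of all genes, and none was counted.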

How the data were processed

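Single-cell libraries of 1 Early and 1 Advanced pool of TNF-Tg PLNs were used. The deposited matrices hold UMI counts per gene and cell, made by the authors with Cell Ranger against mm10. Its version is given as 3.1 or 3.1.0 in the submitters' processing notes, with Seurat 4.0.3, and as 6.0.1 in the file header. Reads gave counts after collapsing of UMIs, no normalization was applied, and RNA free in the droplets remains in them. Cells with fewer than 200 genes were removed, as in the study, which left 8221 of 8242 Early and 8183 of 8201 Advanced barcodes. No doublet caller was run, and cells over 20000 UMIs were left out in an alternative instead.

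UMIs were summed per library and class and scaled to 1000000 (CPM). Levels and ratios carry exact Poisson and exact conditional 95% intervals, shares Clopper-Pearson intervals, and ratios of shares a score interval, which replaced the planned conditional one. A count of 0 was set at 3 UMIs over the class for a bound. PCR and capture error, mouse and batch are not in these intervals. Python 3.11.15, numpy 2.4.6, scipy 1.17.1, pandas 2.3.3 and, for TMM factors, edgeR 4.0.16 in R 4.3.3 were used, and the calculation was tested on simulated counts.

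The members and the 24 gene lists were chosen with earlier results of these data known. The rule for named genes took, for each comparison, the 12 higher and 12 lower genes whose interval end nearest 1 lay farthest from it (for stages, among genes over 2-fold apart), the markers, the 16 state genes and up to 4 members of each list by CPM. Immunoglobulin, ribosomal protein and mitochondrial genes and markers of other cells were set aside. Ikzf4, Cish, Tnfrsf1a, Tnfrsf1b, Tnfrsf9, Izumo1r, Nrp1, Il1rl1, Il10, Il21, Cxcr5, Cxcr6, Lag3, Gpr83, Gzmb, Prdm1, Batf, Bcl2, Fas, Fos, Tbx21 and the counted genes outside that rule (Vim, Ass1, Cd81, Gbp7, Cmtm7, Gm28112, Ifngr1, Dennd2d, Rnf19a) were named after their values were seen. Alternatives are given in the closing section. Some genes, among them 1 resting gene of the state rule, are not reported here.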

Additional observations from a re-analysis of the deposited data

Results flagged for a closer look

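Only genes taken by the rule for named genes were searched for a class ratio that changed sides between the stages. Of these, 9 had intervals of Foxp3+ over Foxp3- CD4 cells on opposite sides of 1. The difference was not tested in any of the 9, and the other measured genes were not searched. Ccr7 was 1.84 Early and 0.428 Advanced, Klf2 2.03 and 0.661, S1pr1 1.63 and 0.574, and the interleukin-7 receptor Il7r 1.53 and 0.841. Itga4, an integrin chain, was 1.65 Early and 0.802 Advanced, and the immunoglobulin chain Igkc was 0.735 and 1.25. Ccl1 was 0.114 Early, as an upper bound, and 21.3 Advanced, as a lower bound, with all Advanced UMIs in 1 cell. Nr4a3 was 14.2 Early and 0.211 Advanced, with 94.1% of its Early Foxp3+ UMIs in 1 cell. The pseudogene Olfr1369-ps1 was 5.02 Early and, as an upper bound, 0.0458 Advanced, with 83.3% of its Early UMIs in 1 cell.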

How the results depend on the processing

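Over all alternatives, 1838 values stayed within the counting interval of the value reported, 289 moved beyond it and 23 changed direction. A change of direction was counted only where the reported interval excluded 1, so values near 1 that crossed it are not among the 23. The ratio of effector-leaning shares and the ratio of shares of all cells stayed within their intervals under every alternative run for them, between 0.872 and 1.17 and between 2.09 and 2.92. Without cells over 20000 UMIs, 15 genes were higher between the classes, and 8 were higher and 12 lower between stages. With no Cd4 minimum for Foxp3- cells, the ratio of shares of both CD4 classes was 0.588 and 43 genes were lower. With a Cd4 UMI needed in Foxp3+ cells, these were 0.574 and 8, with 17 higher. With each cell weighted equally, 15 genes were lower between stages. Without the highest cell of each gene, 11 were higher and 2 lower, with a minimum of 50 CPM 10 and 1, and with no minimum 11 were lower. The next 3 alternatives, which leave out cells by myeloid markers, by markers of several other cell types or by cell-cycle genes, were chosen after seeing the data. Without cells with 3 or more myeloid UMIs, 9 genes were higher between stages. Without cells with 3 or more UMIs of myeloid, NK, gamma delta or precursor markers, 9 were lower between classes, and 14 were higher and 93 lower between stages. Without cells with 20 or more cell-cycle UMIs, 13 were higher and 8 lower between classes. The genes themselves changed as well. Of the 30 counted between stages, 9 were counted again without cells over 20000 UMIs and 14 with equal weights. It was 12 both without the highest cell and without cells bearing markers of other types, and 30 with TMM factors. Of the 42 counted between classes, 17 were counted again without the dividing cells, 23 with no Cd4 minimum and 35 with TMM factors. The causes were not tested.

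Values counted as changed in direction were, for Nr4a3 between stages, 2.68 with 2 or more Foxp3 UMIs and 2.55 without its highest cell. Without cells over 20000 UMIs, Itga4 was 1.15 and Tbc1d4 1.12 Advanced, and S100a6 0.779 Early. With no Cd4 minimum, Il7r was 0.804 and Pdcd1 1.06 Early, and Pdcd1 was 1.06, Socs2 0.924 and Tbc1d4 1.03 Advanced. With equal weights, Il7r was 1.16 and Itga4 1.05 Advanced, and Nrp1 0.986 Early. Without cells bearing markers of other types, Itga4 was 1.35 Advanced, and between stages Cd74 was 0.982 and Mt1 0.566. Without cells with 20 or more cell-cycle UMIs, Il7r was 1.05, Itga4 1.15 and Tbc1d4 1.10 Advanced, Lgals1 0.940 and S100a6 0.614 Early, and between stages Hmgb2 was 1.04 and S100a6 1.13. No paired analysis was possible because each stage is 1 library. With 57 Foxp3+ and 34 Foxp3- CD4 cells Early, genes in few cells have wide intervals, and the pooling of mice hides their spread.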

Other observations

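Of all UMIs in the 2 CD4 classes, Foxp3+ cells held 92.2% (86.2 to 96.2) of Il2ra Early and 88.7% (84.7 to 92.0) Advanced. For Ikzf2 they held 84.7% (81.8 to 87.3) and 77.9% (75.6 to 80.0), and for Ctla4 77.8% (73.2 to 81.9) and 79.2% (76.5 to 81.7). The UMIs of all genes summed to 676793 in Foxp3+ and 565732 in Foxp3- cells Early. Advanced, they summed to 1593197 and 1921099, so the part of Foxp3+ cells in all UMIs was lower Advanced. Over both classes together, the Advanced over Early ratio was 0.874 (0.710 to 1.08) for Il2ra, 0.741 (0.677 to 0.812) for Ikzf2 and 0.540 (0.485 to 0.601) for Tnfrsf4. Among cells with no UMI of Foxp3 or Cd4, 25 of 38 Early and 134 of 248 Advanced cells had an Ikzf2 UMI.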
